A study of Mus musculus with 16 samples.

Results

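The genes described here encode the proteins of the cytosolic ribosome, measured in thymic lymphomas and in normal thymic T cells of mice. They were chosen by name: a feature (a set of probes for one transcript region) whose annotation gave a single symbol of the form Rpl or Rps with a number, or Rplp0, Rplp1, Rplp2 or Rpsa, with pseudogene symbols left out, and the brightest feature of each gene. This gave 67 genes among 22184 genes that had a feature of their own: 34 genes with symbols of the large subunit (the pseudogene Rpl6l and the copy Rpl32l among them), 23 of the small subunit, 3 of the stalk and 7 paralogs, which are gene copies often restricted to certain tissues. Of these 67, 62 exceeded the array median on 3 or more of the 16 arrays and were tested, among 12933 genes tested in all. The 5 that did not pass this filter were Rpl10l, Rpl22l1, Rpl32l, Rpl3l and Rps4l.

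RNA was hybridized to 16 whole-transcript mouse arrays, 1 per sample. The tumor groups were 3 lymphomas of *Lck-Dlx5* mice at 9 months of age (founder lines 63, 47 and 86), 3 tumors of *Lck-MyrAkt2* mice of line 72 and 3 of line 420 at 5 months, and 4 tumors of mice carrying both transgenes (double transgenic, 2 with Dlx5 founder line 47 and 2 with line 86) at 2 months. The reference was thymic T cells of 3 wild-type (WT) mice at 9 months. Dlx5 belongs to the homeobox transcription factors, and MyrAkt2 is Akt2, a kinase, kept active by anchoring it to the membrane. The Lck promoter, specific to the T cell lineage, drives the expression of each transgene. Double transgenic replicates 1 and 2 came from founder line 47 crossed with MyrAkt2 line 420, and the labels give no MyrAkt2 line for replicates 3 and 4. *Lck-Dlx5* and WT mice had the same age, as did the mice of lines 72 and 420; in the other comparisons age differed with genotype and cannot be told apart from it. Primary tumor tissue was used rather than sorted cells, so RNA of other cells in the tissue was also measured. The WT samples, described as thymic T cells, also had signal for markers of other cell types (values below).

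The cytosolic ribosome joins a small subunit, which reads the mRNA, to a large subunit, which forms peptide bonds. Its proteins are made in near-equal numbers and assembled with ribosomal RNA in the nucleolus. Many of their mRNAs start with a run of pyrimidines, the 5′ terminal oligopyrimidine (TOP) tract, through which mTOR, a kinase downstream of Akt, controls their translation. Dividing cells, those of lymphomas among them, spend much of their transcription on these genes, and Myc is known to raise their expression.

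The deposited values were log2 levels, and array medians lay between 6.32 and 6.46. Across genes, arrays of the same tumor group correlated at 0.909 to 0.980, WT arrays at 0.992 to 0.993 and arrays of different groups at 0.849 to 0.963. Dlx5 lay at 11.45 to 12.30 in *Lck-Dlx5* tumors and at 11.93 to 12.97 in double transgenic tumors, against 5.70 to 5.82 in WT. It lay at 6.05 to 6.07 in line 72 and at 9.87 to 10.69 in line 420 tumors. The labels give line 420 no Dlx5 transgene. The paper describes a frequent inversion in *Lck-MyrAkt2* tumors that places Dlx5 beside T cell receptor enhancer elements and raises its expression. Whether the line 420 tumors measured here carry this inversion was not tested. The comparison of line 420 with line 72 thus also sets tumors with high Dlx5 against tumors with low Dlx5. Akt2 lay at 9.91 to 10.04 in line 72, 9.56 to 9.65 in line 420 and 9.58 to 10.11 in double transgenic tumors, against 9.74 to 9.91 in WT; whether its feature reads the MyrAkt2 transgene is not given in the sources used here. Xist, transcribed in female cells, lay at 11.78 to 12.03 on all line 72 arrays and at 5.15 to 5.80 on all WT arrays, so sex and group cannot be told apart in that comparison. It lay at 12.42, 5.57 and 5.73 in *Lck-Dlx5*, 5.32, 5.54 and 12.37 in line 420 and 5.65, 4.94, 12.57 and 12.37 in double transgenic tumors. The mix of sexes read from Xist thus also differed between groups in the other comparisons, and its part was not tested. The number of arrays limits the precision. The study describes the *Lck-Dlx5* and line 72 tumors and the WT samples as coming from separate mice. For line 420 and double transgenic tumors the labels give distinct sample codes, and p-values measure the spread between these samples.

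Ribosomal protein genes were higher in every tumor group than in WT T cells. In line 72 tumors 47 of the 62 tested genes were higher and in line 420 tumors 45, with a median log2 difference of 0.62 and 0.56 (1.54-fold and 1.48-fold). In double transgenic tumors 44 were higher and in *Lck-Dlx5* lymphomas 38, with a median of 0.50 and 0.48 (1.41-fold and 1.40-fold). Among all genes tested, the median was 0.00 for *Lck-Dlx5*, 0.04 for line 72, 0.03 for line 420 and 0.05 for double transgenic tumors. These directions are relative to the deposited scale: with each array shifted to the same ribosomal protein median the medians were, by construction, near 0 (0.01 for *Lck-Dlx5*, -0.03 for line 72, -0.04 for line 420 and 0.09 for double transgenic tumors), and the median of all genes then lay at -0.47, -0.60, -0.58 and -0.36 in that order. In bulk samples, more RNA per cell and more cells of a type with high levels cannot be told apart.

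A gene was called higher or lower when its adjusted p was under 0.05 (limma, Benjamini-Hochberg over all 12933 genes). Of all genes tested, 20.7% were called higher and 15.6% lower in line 72 tumors, 15.1% and 15.4% in line 420, 14.9% and 8.94% in double transgenic and 13.7% and 15.9% in *Lck-Dlx5* tumors. Against these backgrounds and in the same order, 75.8%, 72.6%, 71.0% and 61.3% of the tested ribosomal protein genes were called higher, and 0 were called lower by limma in each of the 4 comparisons. At an unadjusted p under 0.05 the number lower was also 0, and the numbers higher were 50, 49, 49 and 45. The 4 comparisons share the WT arrays and are not independent of each other. Rpl27a, Rpl30 and Rplp2 lay below the array median (6.46) on all 3 WT arrays and thus passed the filter on low values only through tumor arrays; among the other 59 genes, 44 were called higher in line 72, 43 in line 420, 41 in double transgenic and 36 in *Lck-Dlx5* tumors. Without WT replicate 2, 29 genes were called higher in double transgenic tumors, and 24 when only the arrays with a number as sample code were used, which leaves double transgenic replicates 3 and 4. Xist was high on both of these arrays and low on the WT arrays.

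**Figure D1:**
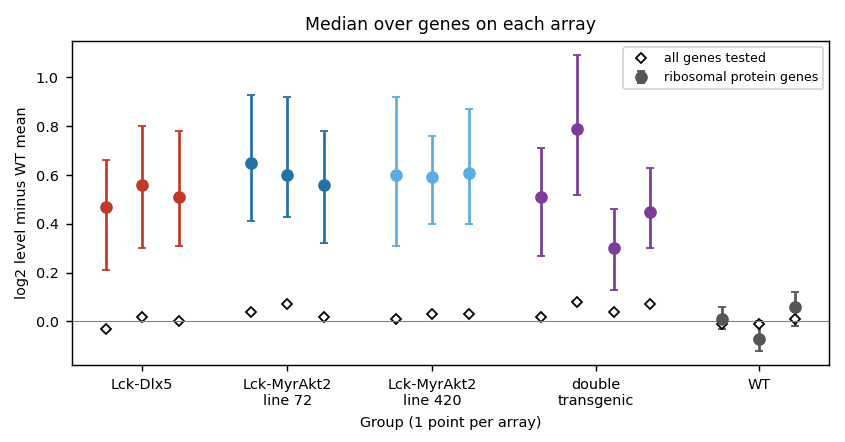
Median difference from the WT mean on each array (log2), for the 62 tested ribosomal protein genes (filled circles, with bars from the lower to the upper quartile of genes) and for all 12933 genes tested (open diamonds). All 13 tumor arrays lie between 0.30 and 0.79 for the ribosomal protein genes and the 3 WT arrays between -0.07 and 0.06.

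The difference was present on each tumor array. The median of the 62 genes, taken against the WT mean, was 0.47, 0.56 and 0.51 in *Lck-Dlx5* lymphomas. It was 0.65, 0.60 and 0.56 in line 72 tumors and 0.60, 0.59 and 0.61 in line 420 tumors. The double transgenic tumors spread most, with 0.51, 0.79, 0.30 and 0.45, against 0.01, -0.07 and 0.06 in WT. Both ends of the tumor range were thus double transgenic: replicate 2, of founder line 47, was highest and replicate 3, of founder line 86, lowest. On each tumor array 51 to 60 of the 62 genes lay above all 3 WT arrays, whereas 38.7% to 49.3% of all genes did. Every array of the tumor group lay above every WT array for 55 of the 62 genes in line 72 (31.9% of all genes tested), 50 in line 420 (27.5%), 51 in double transgenic (24.0%) and 49 in *Lck-Dlx5* tumors (25.1%). Within groups the genes varied little: their median SD between arrays of a group was 0.16, and 0.20 for all genes tested.

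**Figure D2:**
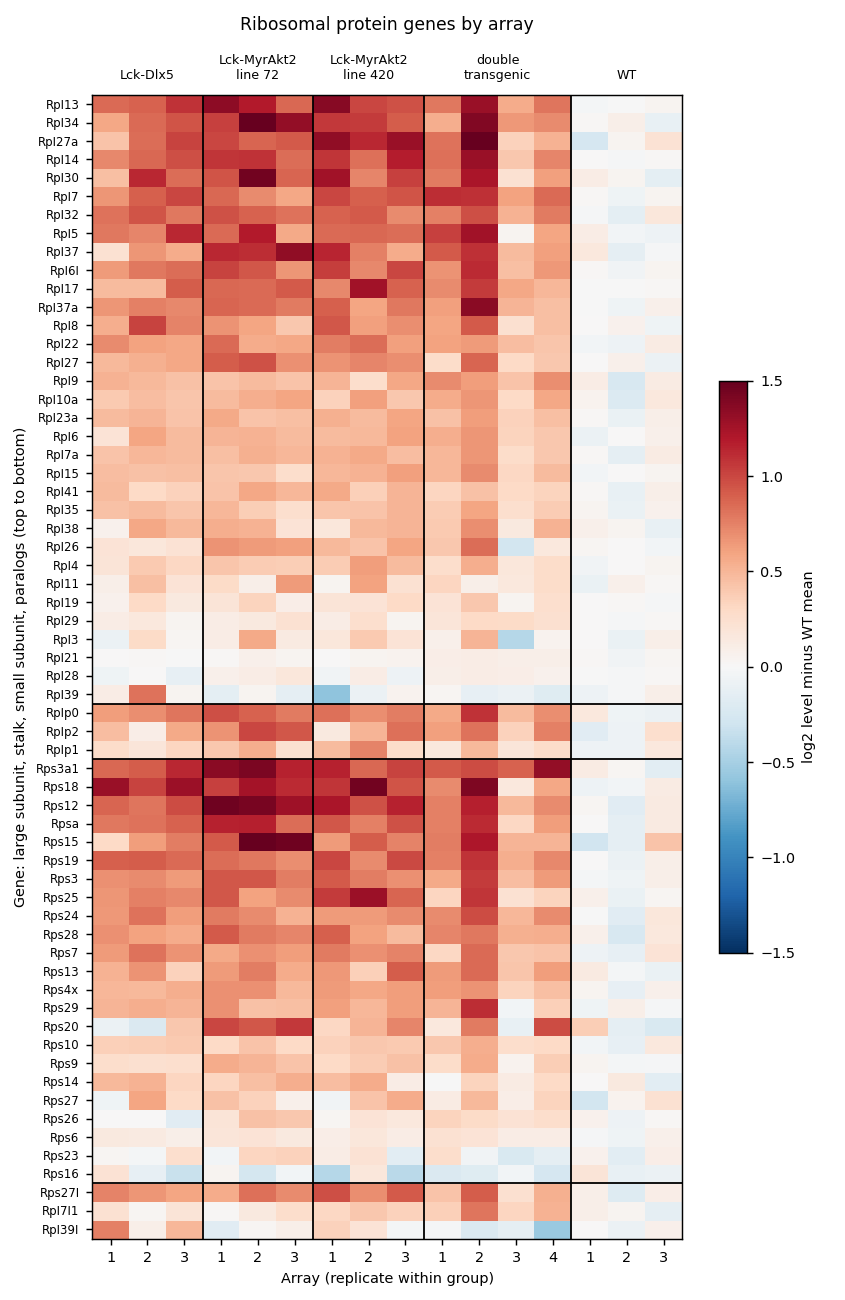
Log2 level minus the WT mean for each of the 62 tested ribosomal protein genes (rows, ordered within each class by the tumor mean) on each of the 16 arrays (columns, by group and replicate), with colors capped at 1.5 in either direction. Rpl13 heads the large subunit and Rps3a1 the small subunit, while Rpl21, Rpl28, Rps6 and Rps16 stay near the WT mean.

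Gene positions below are those of RefSeq on mouse build GRCm38.p6. Of the 23 small subunit genes, 18 were called higher in line 72, 17 in line 420, 15 in double transgenic and 14 in *Lck-Dlx5* tumors, with median log2 differences of 0.65, 0.64, 0.50 and 0.52. Rps3a1 (chr3:86137940-86142668), a protein of the small subunit, had the largest difference in double transgenic tumors. Its log2 level was 11.30, 11.34 and 11.57 in *Lck-Dlx5*, 11.79, 11.85 and 11.59 in line 72, 11.59, 11.30 and 11.45 in line 420 and 11.36, 11.42, 11.32 and 11.76 in double transgenic tumors, against 10.56, 10.47 and 10.28 in WT. No tumor array overlapped the WT arrays. The log2 differences were 0.97 ± 0.14 (SE, adjusted p = 0.00041) for *Lck-Dlx5*, 1.30 ± 0.14 (1.32e-05) for line 72, 1.01 ± 0.14 (0.000215) for line 420 and 1.03 ± 0.13 (0.000168) for double transgenic tumors, a rise of 1.96-fold to 2.47-fold.

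Rps18 (chr17:33951998-33955665), a protein of the head of the small subunit, had the largest difference in *Lck-Dlx5* lymphomas. Its log2 level was 8.96, 8.68 and 8.95 there, 8.69, 8.91 and 8.79 in line 72, 8.74, 9.11 and 8.61 in line 420 and 8.37, 9.07, 7.82 and 8.25 in double transgenic tumors, against 7.59, 7.62 and 7.79 in WT. Double transgenic replicate 3 lay just above the highest WT array and the other tumor arrays well above it. The log2 differences were 1.2 ± 0.23 (SE, adjusted p = 0.00244) for *Lck-Dlx5*, 1.13 ± 0.23 (0.00193) for line 72 and 1.16 ± 0.23 (0.00243) for line 420. In double transgenic tumors it was 0.71 ± 0.22 (adjusted p = 0.0298), and this call was lost without double transgenic replicate 1 or 2 or any WT array (adjusted p = 0.0522 to 0.101). Dimmer Rps18 features had smaller differences. In *Lck-Dlx5*, line 72, line 420 and double transgenic tumors, a feature at a mean level of 6.77 had 0.49, -0.03, 0.35 and 0. Another, at 7.1, had 0.53, 0.63, 0.43 and 0.42 in the same order.

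Rps12 (chr10:23785183-23787383), a small subunit protein that takes part in cell competition in Drosophila, had the largest difference in line 72. Its log2 level was 12.26, 12.23 and 12.08 in line 72, 12.03, 11.76 and 11.96 in line 420, 11.68, 11.61 and 11.78 in *Lck-Dlx5* and 11.56, 11.97, 11.29 and 11.52 in double transgenic tumors, against 10.84, 10.64 and 10.94 in WT. All tumor arrays lay above all WT arrays, and the line 72 arrays lay above every *Lck-Dlx5* and double transgenic array. The rise was 2.61-fold in line 72 (log2 difference 1.38 ± 0.15 SE, adjusted p = 1.73e-05), 2.16-fold in line 420, 1.84-fold in *Lck-Dlx5* and 1.71-fold in double transgenic tumors.

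Rps19, mutated in human Diamond-Blackfan anemia, averaged 11.66 ± 0.03 in *Lck-Dlx5*, 11.55 ± 0.07 in line 72, 11.67 ± 0.16 in line 420 and 11.55 ± 0.23 in double transgenic tumors, against 10.77 ± 0.09 in WT (SD, n = 3 each and 4 double transgenic). Its log2 differences, 0.88, 0.77, 0.90 and 0.78, were all called (adjusted p = 0.000304 to 0.000686). Rpsa, also known as the laminin receptor, rose by a log2 difference of 0.83, 1.06, 0.88 and 0.71 in the same order (adjusted p = 0.0027, 0.000275, 0.00152 and 0.00558). Rps4x, an X-linked small subunit gene, rose by 0.51, 0.62, 0.61 and 0.52 (adjusted p = 0.000552 to 0.00353). Rps25, which is known to be needed for initiation at viral internal ribosome entry sites, rose in *Lck-Dlx5* (0.71 ± 0.18 SE), line 72 (0.75 ± 0.18) and line 420 tumors (1.07 ± 0.18); in double transgenic tumors the difference was 0.49 ± 0.17 (adjusted p = 0.0546).

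Rps15, near the decoding site, depended more on the group. Its log2 level was 7.18, 7.90 and 7.72 in line 72, 6.89, 7.17 and 7.0 in line 420, 7.03, 7.47, 6.77 and 6.77 in double transgenic and 6.56, 6.88 and 7.03 in *Lck-Dlx5* tumors, against 5.97, 6.12 and 6.68 in WT. The *Lck-Dlx5* arrays overlapped WT and the other groups did not. It rose 2.54-fold in line 72 (log2 difference 1.35 ± 0.23 SE, adjusted p = 0.000595). The differences were 0.76 ± 0.23 in line 420 (adjusted p = 0.0231), 0.75 ± 0.22 in double transgenic (0.0228) and 0.57 ± 0.23 in *Lck-Dlx5* tumors (0.0799). The call in line 420 was lost without line 420 replicate 2 or 3 or WT replicate 1 or 2, and that in double transgenic tumors without double transgenic replicate 2 or WT replicate 1 or 2 (adjusted p = 0.0521 to 0.114). Rps14, whose loss of 1 copy causes the anemia of the human 5q- syndrome, was close to the threshold, with 0.44 ± 0.13 in *Lck-Dlx5* (adjusted p = 0.0247), 0.44 ± 0.13 in line 72 (0.0194), 0.38 ± 0.13 in line 420 (0.0474) and 0.19 ± 0.13 in double transgenic tumors (0.302). Each of its 3 calls was lost when any of at least 4 single arrays was left out (adjusted p = 0.0508 to 0.17).

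**Figure D3:**
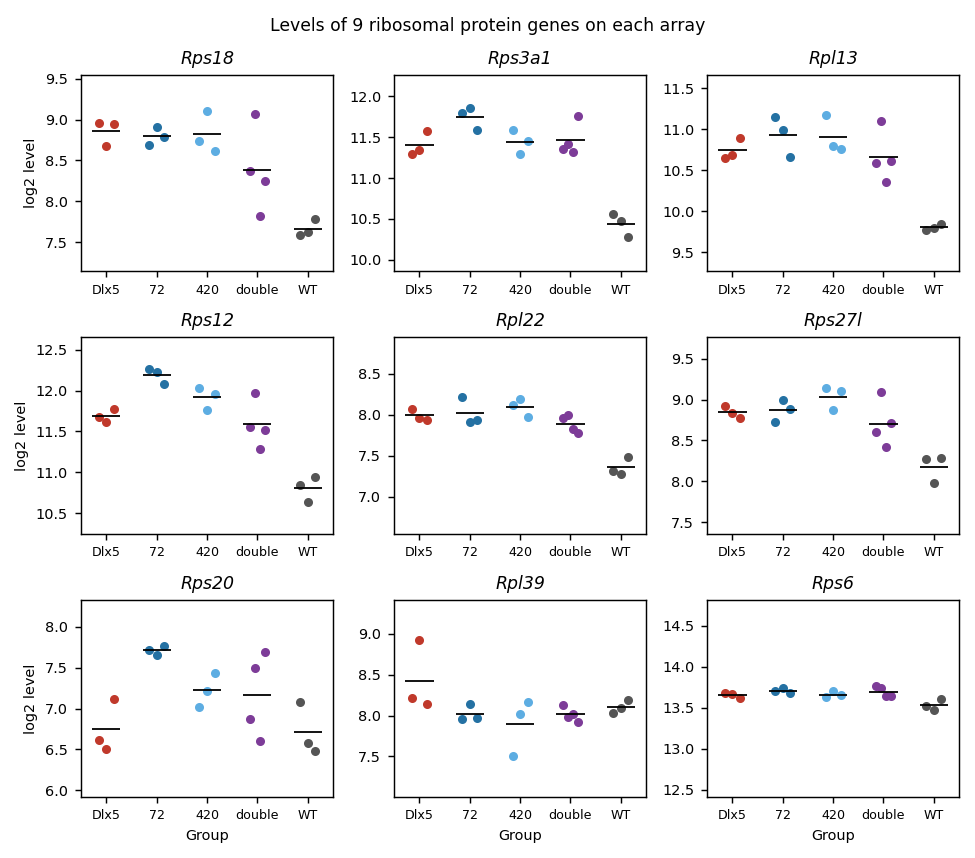
Log2 level of 9 ribosomal protein genes on each array (points) with the group mean (line); Dlx5, 72, 420 and double stand for *Lck-Dlx5*, *Lck-MyrAkt2* lines 72 and 420 and double transgenic tumors, and each panel spans the same range of log2 values. Rps18, Rps3a1, Rpl13, Rps12, Rpl22 and Rps27l lie above WT on all tumor arrays, Rps20 does so in line 72, and no difference of Rpl39 or Rps6 from WT was called.

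Of the 33 tested genes with large subunit symbols, Rpl6l included, 25 were called higher in line 72, 24 in line 420, 25 in double transgenic and 22 in *Lck-Dlx5* tumors, with median log2 differences of 0.53, 0.53, 0.50 and 0.47. Rpl13 (chr8:123102350-123105244) lay at 10.65, 10.69 and 10.89 in *Lck-Dlx5*, 11.15, 10.99 and 10.66 in line 72, 11.17, 10.80 and 10.76 in line 420 and 10.59, 11.10, 10.36 and 10.61 in double transgenic tumors, against 9.77, 9.80 and 9.84 in WT. The tumor arrays varied over 0.81 and the WT arrays over 0.07, without overlap. Its rise was 1.92-fold in *Lck-Dlx5* (log2 difference 0.94 ± 0.18 SE, adjusted p = 0.00197), 2.19-fold in line 72, 2.15-fold in line 420 and 1.82-fold in double transgenic tumors. A dimmer Rpl13 feature, at a mean level of 8.44, had smaller log2 differences of 0.62, 0.13, 0.6 and 0.17 in the same order. The size of the rise thus depends on the feature, most in line 72 and double transgenic tumors. Rpl7 rose by 0.85 ± 0.14, 0.71 ± 0.14, 0.95 ± 0.14 and 0.91 ± 0.13 (SE) in the same order (adjusted p = 0.000321 to 0.00115).

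Rpl34 rose 2.43-fold in line 72, with log2 levels of 9.26, 9.75 and 9.55 there against 8.25, 8.33 and 8.13 in WT. Its log2 differences were 1.28 ± 0.19 (SE) in line 72, 1.00 ± 0.19 in line 420, 0.82 ± 0.18 in double transgenic and 0.79 ± 0.19 in *Lck-Dlx5* tumors (adjusted p = 0.000199 to 0.00805). With features annotated to several genes also admitted, a brighter feature was read for Rpl34, and its differences in line 72 (0.20) and in *Lck-Dlx5* tumors (0.25) did not pass. Rpl27a had the largest difference in line 420. Its log2 level was 7.32, 7.13 and 7.29 in line 420, 6.42, 6.83 and 7.01 in *Lck-Dlx5*, 7.0, 6.87 and 6.91 in line 72 and 6.81, 7.72, 6.34 and 6.51 in double transgenic tumors, against 5.74, 6.03 and 6.21 in WT, all 3 below the array median of 6.46. The difference in line 420 was 1.26 ± 0.27 (SE, adjusted p = 0.00361), and its size rests on these low WT values. In *Lck-Dlx5* tumors the difference was 0.76 ± 0.27 (adjusted p = 0.0476), and that call was lost without any of 12 single arrays (adjusted p up to 0.161).

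Rpl22, an RNA-binding protein of the large subunit whose loss hinders αβ T cell development in mice (chr4:152324436-152334082), lay at 8.07, 7.96 and 7.94 in *Lck-Dlx5*, 8.21, 7.91 and 7.94 in line 72, 8.12, 8.19 and 7.97 in line 420 and 7.96, 8.0, 7.82 and 7.77 in double transgenic tumors, against 7.31, 7.28 and 7.48 in WT. The groups did not overlap with WT. The rise was 1.55-fold, 1.58-fold, 1.66-fold and 1.44-fold in the same order (adjusted p = 0.00138, 0.000492, 0.000432 and 0.00309). Its paralog Rpl22l1 was below the array median, with group means of 5.72, 5.65, 5.57 and 5.19 in the tumors and 5.60 in WT, and was not tested. Lin28b, an RNA-binding protein induced when Rpl22 is lost in mouse T cell progenitors, was also below the array median in all groups (means of 4.98 to 5.10 in tumors and 5.17 in WT).

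Rpl5 and Rpl11, which with 5S ribosomal RNA can bind and inhibit Mdm2, differed in their calls. Rpl5 lay at 7.79, 7.72 and 8.13 in *Lck-Dlx5*, 7.84, 8.18 and 7.56 in line 72, 7.84, 7.86 and 7.83 in line 420 and 8.02, 8.25, 7.04 and 7.59 in double transgenic tumors, against 7.11, 6.95 and 6.92 in WT. Double transgenic replicate 3 lay within the WT range. The differences, 0.88 ± 0.24, 0.86 ± 0.24, 0.85 ± 0.24 and 0.73 ± 0.23 (SE), were called (adjusted p = 0.0137 to 0.0335). Each of the 4 calls was lost when at least 1 single array was left out (adjusted p = 0.0513 to 0.102), and on a brighter feature annotated to several genes the differences were 0.19, 0.28, 0.25 and -0.01, none called. Rpl11 had differences of 0.25 ± 0.16, 0.34 ± 0.16, 0.29 ± 0.16 and 0.21 ± 0.15 in the same order, none of them called (adjusted p = 0.115 to 0.328).

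Rpl8, close to the peptidyl transferase center, rose by 0.77 ± 0.16 (SE) in *Lck-Dlx5* and 0.75 ± 0.16 in line 420 tumors. Its difference was 0.55 ± 0.16 in line 72 and 0.55 ± 0.15 in double transgenic tumors, where the calls (adjusted p = 0.0166 and 0.0189) were lost without line 72 replicate 1 or WT replicate 3, and without WT replicate 1 or 3 (adjusted p up to 0.0707). Rpl30 rose by 1.08 ± 0.24 in line 72 and 1.00 ± 0.24 in line 420, and by 0.80 ± 0.24 in *Lck-Dlx5* and 0.71 ± 0.23 in double transgenic tumors, of which the last 2 calls were lost without single arrays (adjusted p up to 0.121). Its WT levels, 6.29, 6.22 and 6.03, were below the array median, and on a brighter feature annotated to several genes the difference in line 72 was 0.23 (adjusted p = 0.0621). Rpl8, Rpl30, Rpl3 and Rpl37 lie on chromosome 15, as Myc does. Their median difference was 0.63 in *Lck-Dlx5*, 0.82 in line 72, 0.78 in line 420 and 0.63 in double transgenic tumors, beside 0.48, 0.62, 0.54 and 0.50 for the 58 genes elsewhere. The paper names trisomy 15 as the sole recurrent karyotype change of *Lck-Dlx5* lymphomas, and the part of copy number here was not tested.

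The stalk, formed by Rplp0, Rplp1 and Rplp2, recruits the elongation factors. Rplp0 rose by 0.71 ± 0.14 (SE) in *Lck-Dlx5*, 0.88 ± 0.14 in line 72, 0.77 ± 0.14 in line 420 and 0.70 ± 0.13 in double transgenic tumors (adjusted p = 0.000267 to 0.00235). Its levels were 11.66 to 12.26 on tumor arrays and 11.09 to 11.34 on WT arrays. Rplp1 was called in line 72 (0.40 ± 0.13) and line 420 (0.50 ± 0.13), but each call was lost without any of at least 3 single arrays (adjusted p up to 0.117). Rplp2 was called in line 72 (0.87 ± 0.19, adjusted p = 0.00261) and double transgenic tumors (0.64 ± 0.18, adjusted p = 0.0181), over WT levels of 5.96, 6.05 and 6.38 that were below the array median. The call in double transgenic tumors was lost without WT replicate 1 or 2 (adjusted p up to 0.0878), and the difference was -0.21 on a brighter feature annotated to several genes, where the difference in line 72 was 0.04 (not called).

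Of the 7 paralogs, 3 were bright enough to test. Rps27l, in humans a p53 target that binds Mdm2, lay at 8.92, 8.84 and 8.77 in *Lck-Dlx5*, 8.73, 9.00 and 8.89 in line 72, 9.14, 8.87 and 9.10 in line 420 and 8.60, 9.09, 8.42 and 8.71 in double transgenic tumors, against 8.27, 7.98 and 8.28 in WT. No tumor array overlapped WT, and the rise was 1.59-fold, 1.62-fold, 1.82-fold and 1.44-fold (adjusted p = 0.0059, 0.00283, 0.00113 and 0.0168); the call in double transgenic tumors was lost without WT replicate 2 (adjusted p = 0.0917). Its parent Rps27 had differences of 0.28, 0.28, 0.31 and 0.26 in the same order, none called (adjusted p = 0.266 to 0.346). Rpl7l1 was called in double transgenic tumors (0.50 ± 0.12 SE, adjusted p = 0.0082). In line 420 it was also called (0.35 ± 0.13, adjusted p = 0.0466), a call lost without any of 12 single arrays (adjusted p up to 0.164). Rpl39l, a testis-enriched copy of the exit-tunnel protein Rpl39, had differences of 0.45, -0.01, 0.18 and -0.23 in *Lck-Dlx5*, line 72, line 420 and double transgenic tumors, and Rpl39 of 0.33, -0.08, -0.21 and -0.09, none called (adjusted p from 0.0611). Rpl10l and Rpl3l, known from testis and muscle, lay between 4.11 and 6.22 on all arrays and were not tested.

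Some ribosomal protein genes did not pass the test on their brightest feature. Rps6, the substrate of the S6 kinases and the brightest of the genes, lay at 13.62 to 13.68 in *Lck-Dlx5*, 13.68 to 13.74 in line 72, 13.63 to 13.70 in line 420 and 13.64 to 13.76 in double transgenic tumors, against 13.47 to 13.61 in WT. The tumor arrays all lay above WT, but the differences, 0.12, 0.17, 0.12 and 0.16, did not pass (adjusted p = 0.106 to 0.274). Rpl3, a protein of the peptidyl transferase center, had differences of 0.07, 0.27, 0.25 and 0.05 in the same order on its brightest feature, and none passed. A dimmer Rpl3 feature, at a mean level of 9.75, had larger differences of 1.10, 1.33, 1.24 and 0.77, so the features of Rpl3 disagree. Another 4 genes, chosen after their values were seen, did not pass in any comparison with WT on their brightest feature: Rpl21 (0.00 to 0.10), Rpl28 (-0.06 to 0.12), Rps23 (-0.04 to 0.21) and Rps16 (-0.23 to -0.08). For some genes the difference on a very bright feature was small where a dimmer feature of the same gene moved more. The brightest Rpl21 feature, at a mean level of 13.49, had 0.00, 0.05, 0.03 and 0.10 in the same order, and another at 7.85 had 0.42, 0.92, 0.65 and 0.58. For Rpl29, also chosen after its values were seen, the feature at 13.02 had 0.10, 0.16, 0.13 and 0.25, and another at 10.73 had 0.29, 0.51, 0.49 and 0.55. Other genes, likewise chosen after their values were seen, went differently. The brightest Rpl41 feature, at 13.24, had 0.37, 0.51, 0.48 and 0.35 and was called in each group. A dimmer Rpl7a feature, at 8.32, had -0.07, 0.20, 0.26 and 0.26, below the 0.46, 0.50, 0.51 and 0.45 of its brightest. Rps6 and Rpl28 had 1 feature each. A small difference on a very bright feature, as for Rps6, Rpl21 and Rpl28, does not by itself show that the transcript was unchanged. The part of signal compression was not tested.

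Whether a gene was called varied with its level. Among the 20 genes of middle level (8.47 to 11.63 on average over all arrays), 18 were called higher in *Lck-Dlx5*, 19 in line 72, 19 in line 420 and 18 in double transgenic tumors, with median differences of 0.70, 0.73, 0.83 and 0.66. Among the 21 brightest (11.64 to 13.65) the counts were 12, 15, 14 and 15 and the medians 0.42, 0.42, 0.50 and 0.44. Among the 21 dimmest (6.19 to 8.45) they were 8, 13, 12 and 11, with medians of 0.44, 0.64, 0.51 and 0.49.

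**Figure D4:**
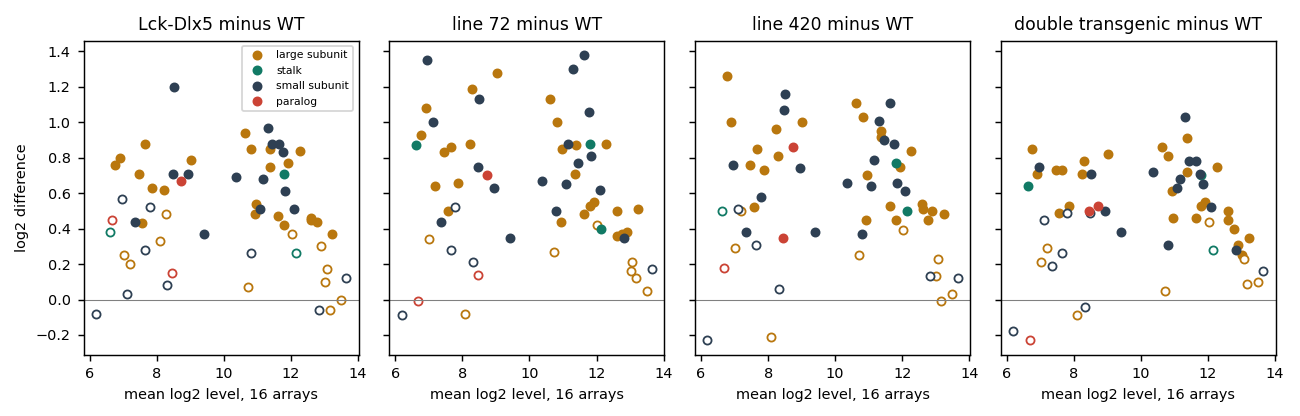
Log2 difference of each tumor group from WT (vertical) against the mean log2 level over all 16 arrays (horizontal) for the 62 tested ribosomal protein genes, colored by class; filled points were called and open points were not. The genes between 8.47 and 11.63 are nearly all filled, while open points gather above 13 and below 8.47.

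The tumor groups differed little from each other. Between line 420 and line 72, 0 genes were called in either direction by limma (0 higher and 3 lower at an unadjusted p under 0.05), with a median difference of -0.02, where 3.73% of all genes were called higher and 7.45% lower. Between *Lck-Dlx5* and line 72 tumors 0 were called higher (1 at an unadjusted p under 0.05) and 5 lower (12), with a median of -0.09, where 6.94% and 12.8% of all genes were called. The 5 were Rps20, Rps15, Rpl37, Rps12 and Rps26. Rps20 lay at 6.62, 6.5 and 7.12 in *Lck-Dlx5* against 7.72, 7.65 and 7.77 in line 72, a fall of 0.96 ± 0.26 on the log2 scale (SE, adjusted p = 0.0188); 2 of the *Lck-Dlx5* arrays lay in the range of WT (6.48 to 7.08) and 1 just above it. Rpl37 lay at 7.86, 8.29 and 8.19 in *Lck-Dlx5* against 8.76, 8.74 and 8.96 in line 72, and it fell by 0.71 ± 0.18 (adjusted p = 0.0157). Both calls depended on single arrays: that of Rps20 was lost without *Lck-Dlx5* replicate 1 or 2 or line 72 replicate 3 (adjusted p = 0.0585 to 0.0688), and that of Rpl37 without *Lck-Dlx5* replicate 1 or line 72 replicate 3 (0.0618 to 0.0683). The Rps20 call was also lost with array weights (difference -0.92, adjusted p = 0.0554) and with the mean of both Rps20 features (-0.54, adjusted p = 0.0545); the other Rps20 feature differed from WT by 0.59 in *Lck-Dlx5* and 0.72 in line 72. Rps15 fell by 0.78 ± 0.23, Rps12 by 0.50 ± 0.15 and Rps26, outside the naming rule but 1 of the 5, by 0.40 ± 0.10 (adjusted p = 0.0309, 0.0295 and 0.0108). The calls of Rps15 and Rps12 were lost without *Lck-Dlx5* replicate 1 or 2, among others (adjusted p up to 0.113). The count of 5 was 1 without *Lck-Dlx5* replicate 1, 2 without *Lck-Dlx5* replicate 2 or line 72 replicate 3, 3 without line 72 replicate 2 and 8 without double transgenic replicate 2.

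Double transgenic tumors differed from *Lck-Dlx5* lymphomas in 1 gene, Rpl39l, with 0 higher (2 at an unadjusted p under 0.05), a median difference of 0.01, and 1.38% of all genes called higher and 0.487% lower. Rpl39l lay at 6.6, 6.41, 6.49 and 6.07 in double transgenic against 7.38, 6.71 and 7.12 in *Lck-Dlx5* tumors, without overlap. It fell by 0.68 ± 0.16 (SE, adjusted p = 0.0460), a call lost without any of 11 single arrays (adjusted p up to 0.147). Against the mean of both *Lck-MyrAkt2* lines, double transgenic tumors had 0 genes higher (1 at an unadjusted p under 0.05) and 1 lower, Rps12 (fall of 0.47 ± 0.12 on the log2 scale, adjusted p = 0.0261), with a median difference of -0.11, and 5.47% and 3.22% of all genes called. That call was lost without double transgenic replicate 1, 3 or 4 or line 420 replicate 1 (adjusted p = 0.0517 to 0.0866). Without double transgenic replicate 2, 14 genes were called lower in this comparison. Founder line, the type of sample code and sex as read from Xist go together in the double transgenic group, and their part in its spread was not tested.

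Other features of the same genes were read as a check on the choice of the brightest. Of the 67 genes, 25 had several features, and 36 of their 41 other features lay above the array median. The difference from WT was positive for 35 of these 36 features in *Lck-Dlx5*, 35 in line 72, 36 in line 420 and 35 in double transgenic tumors, with medians of 0.52, 0.62, 0.64 and 0.56. These features are not all separate readings. Rps12 alone had 8 features, several with the same rounded values at a mean level of 11.15. A further Rpl23a feature and a further Rps19 feature repeated the rounded values of the brightest. Such copies cannot check the choice of feature. A further 12 ribosomal protein genes lay on features annotated to several genes, so their signal can include another transcript. Among them 6 were called higher in *Lck-Dlx5*, 9 in line 72, 10 in line 420 and 10 in double transgenic tumors. Rpl10 had differences of 0.20, 0.33, 0.39 and 0.35 in that order, Rpl36a 0.30, 0.50, 0.65 and 0.48, and Rpl13a -0.28, -0.12, -0.15 and -0.28, none of which passed for Rpl13a. Fau, which encodes a small subunit protein under another name, had differences of 0.08, 0.23, 0.14 and 0.13, none called. Ribosomal protein genes have many processed pseudogenes, so transcripts of near-identical copies can add to a feature's signal; Rpl6l is itself annotated as a pseudogene in RefSeq, and Rps4l as a transcribed one.

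The starts of the genes were examined because the members moved together. RefSeq promoter sequences of mouse build GRCm38.p6 were found for 52 of the 67 genes. A start at C followed by 4 bases of C or T, as in a TOP mRNA, was present in 11 of the 52 (21.2%) and in 2.97% of 26973 other genes. A run of at least 6 C or T within 15 bases of the start was present in 59.6% against 32.6% of other genes, and CCGGAAG, the core bound by ETS factors, on either strand of the 300 bases around the start (reverse complement CTTCCGG) in 44.2% against 9.86%. The motif CACGTG, to which Myc binds, was present in 7.69% against 8.09%. A match is a description of the letters and does not show binding. The TOP count reads only the annotated start base and the next 4, so a start annotated a few bases off is missed. Rpl27a, with a run of 19 C or T across its annotated start, was counted as having no TOP start. The count therefore does not show how many of these mRNAs have a TOP tract. The sequences below are the 15 bases before the annotated start and the 15 from it, 5′ to 3′ on the gene's strand, with the longest pyrimidine run in capitals. They show that such runs occur both in genes that were called (the first 4) and in genes that were not called in any comparison with WT (the last 4); Rpl14, Rpl28 and Rpl38 were chosen after their values were seen. A TOP start was present in all 8 except Rpl27a and Rpl34, and the Rpl34 sequence is that of 1 of its 2 annotated starts.
Rps18, chr17:33955651-33955680, minus strand: tacgtcacttccgCTCTCTCTTCCacagga
Rpl27a, chr7:109519180-109519209, plus strand: gacttcgtgagCTCCTCCCTTTTCCCTTTC
Rpl34, chr3:130730323-130730352, minus strand: CCTTCCTTTTCCTCTTCCggggacggtgct
Rpl14, chr9:120571502-120571531, plus strand: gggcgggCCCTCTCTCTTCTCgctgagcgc
Rps6, chr4:86857353-86857382, minus strand: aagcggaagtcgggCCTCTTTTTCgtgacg
Rpl28, chr7:4792950-4792979, plus strand: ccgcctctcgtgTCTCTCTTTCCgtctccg
Rpl38, chr11:114668565-114668594, plus strand: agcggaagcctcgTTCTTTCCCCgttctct
Rps27, chr3:90213634-90213663, minus strand: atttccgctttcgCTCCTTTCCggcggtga

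Among the tested genes with a promoter sequence, those with a TOP start were called higher in 5 of 10 cases in *Lck-Dlx5*, 6 in line 72, 5 in line 420 and 6 in double transgenic tumors. Those without were called in 25, 31, 30 and 30 of 38. Their median differences were 0.38, 0.36, 0.42 and 0.42 with a TOP start and 0.52, 0.66, 0.66 and 0.53 without. Members with a CCGGAAG motif had medians of 0.44, 0.51, 0.50 and 0.49, and those without 0.54, 0.66, 0.66 and 0.61. These are descriptions over few genes, with no test, and the TOP split rests on the annotated start base. Tested genes with a TOP start ranged in mean level from 6.62 (Rplp2) to 13.65 (Rps6). Rpl15, Rpl28, Rpl35, Rpl38 and Rps6 belong to the brightest genes set apart above and the others do not. The part of level in this split was not tested.

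Other genes of protein synthesis were read from fixed lists. Of 33 genes of ribosome assembly and the nucleolus, 27 were called higher in *Lck-Dlx5*, 30 in line 72, 28 in line 420 and 26 in double transgenic tumors, with medians of 0.74, 1.04, 0.89 and 0.76, above those of the ribosomal proteins. Gnl3, the nucleolar GTPase nucleostemin, rose by 1.72 ± 0.15 (SE) and Ddx21, a nucleolar helicase, by 1.68 ± 0.15 in line 72. Of 6 genes listed by their elongation factor symbols (Eef1a1, Eef1b2, Eef1d, Eef1g, Eef1e1 and Eef2), 5 were called higher in each group (medians of 0.64, 0.87, 0.93 and 0.74). The symbol alone does not show that each of them acts in elongation. Eef1a1 was not called (0.12 to 0.16), although it too lay above WT on every tumor array. Of 30 initiation factor genes, 15, 22, 17 and 15 were called higher, among them the eIF3 subunit Eif3b (1.08 ± 0.14 in line 72). Of 71 mitochondrial ribosomal protein genes, 21, 38, 32 and 35 were called higher and 1 lower, in *Lck-Dlx5*, with medians of 0.34, 0.47, 0.43 and 0.41.

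**Figure D5:**
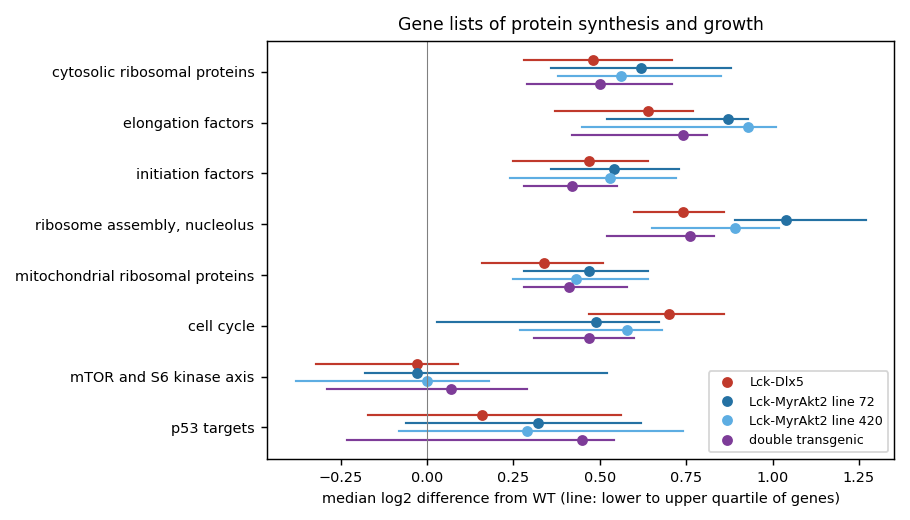
Median log2 difference from WT of each tumor group (points) with the lower to upper quartile of genes (lines) for the ribosomal protein genes and 7 lists of related genes. Ribosome assembly genes lie to the right of the ribosomal proteins in each group, and the mTOR and S6 kinase genes lie around 0.

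Genes of the mTOR and S6 kinase axis went both ways: of 12 tested, 1, 4, 1 and 2 were called higher and 1, 2, 3 and 1 lower in *Lck-Dlx5*, line 72, line 420 and double transgenic tumors. Larp1, which binds TOP mRNAs, rose by 0.74 ± 0.16, 0.84 ± 0.16, 0.81 ± 0.16 and 0.61 ± 0.15 (SE) in that order (adjusted p = 0.00117 to 0.0106). Eif4ebp1, an inhibitor of translation initiation, rose by 1.81 ± 0.51 in line 72 (adjusted p = 0.0138) and had differences of 1.06, 1.07 and 0.73 in *Lck-Dlx5*, line 420 and double transgenic tumors, none called. Rictor, a component of the second mTOR complex, fell by 0.90 ± 0.19 in line 420 and 0.76 ± 0.17 in double transgenic tumors. Rps6kb2, an S6 kinase, fell by 0.49 ± 0.14 in *Lck-Dlx5*, 0.72 ± 0.14 in line 72 and 0.48 ± 0.14 in line 420, and its difference in double transgenic tumors was -0.29 ± 0.13 (adjusted p = 0.131). Of 11 p53 targets 1, 3, 3 and 3 were called higher, and 1 in line 72 and 2 in line 420 lower. Myc rose by 1.09 ± 0.25, 1.87 ± 0.25, 1.28 ± 0.25 and 1.48 ± 0.23, with levels of 10.46 to 11.87 on tumor arrays against 9.54 to 9.73 on WT arrays.

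The cell makeup of the samples also differed with the groups. Averaged over each list, cell cycle genes lay at 10.59 to 11.19 on tumor arrays and at 10.38 to 10.50 on WT arrays; 18 of 19 were called higher in *Lck-Dlx5*, 10 in line 72, 11 in line 420 and 10 in double transgenic tumors. Markers of double-positive thymocytes (6 genes) lay at 10.02 to 10.86 in *Lck-Dlx5*, 7.17 to 7.90 in line 72, 8.99 to 10.07 in line 420 and 10.43 to 10.94 in double transgenic tumors, against 11.52 to 11.65 in WT, and 1 of the 6 lay below the array median on every line 72 array. T cell markers (8 genes) lay at 9.96 to 11.42 in tumors, against 11.35 to 11.42 in WT, and none lay below the array median throughout. Macrophage and dendritic cell markers (9 genes) lay at 8.69 to 9.52 in line 72 and 8.42 to 9.06 in line 420, against 7.79 to 8.03 in WT, and 6 and 4 of them were called higher. B cell markers (6 genes) lay at 6.10 to 7.5 in tumors and 7.09 to 7.47 in WT, thymic epithelial markers (6) at 6.14 to 7.0 and 7.44 to 7.75, and fibroblast and endothelial markers (7) at 7.27 to 8.52 and 7.44 to 7.65. All 7 neutrophil markers lay below the array median on every array of *Lck-Dlx5*, line 420 and double transgenic tumors, and their means were 6.63 to 8.36 in line 72 and 7.26 to 7.91 in WT. The part of cell makeup and of cell division in the ribosomal protein result was not tested.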

How the data were processed

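RNA of 16 samples was hybridized to Affymetrix Mouse Gene ST arrays. The deposited unit is log2 expression per feature, which the authors obtained from Expression Console (Affymetrix); its version, summarization and normalization are not given in the sources used here. The values were used as deposited. Of 41345 features, the annotation names 23525 with 1 gene, 1816 with several and 16004 with none. In limma 3.58.1 (R 4.3.3) each group had its own mean, all 16 arrays entered 1 fit with eBayes, and p-values were adjusted by Benjamini-Hochberg over 12933 genes in each of 8 comparisons. The steps were tested on simulated data. Named genes were the 5 called genes of largest difference in each direction per comparison with WT, the 3 in each direction between tumors, and a fixed set of paralogs and well-known members; of other lists, the 2 of largest difference. The members and lists were chosen with earlier results of these data known. Alternatives covered scaling, filtering, feature choice, moderation, array weights, sample code, threshold and each array left out in turn. Gene positions and promoters came from RefSeq (GRCm38.p6). Plots were made in Python 3.11.15 (matplotlib 3.10.9). Rack1, Rpl36al and an erythroid marker list had no feature of their own and were not analysed here.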

Additional observations from a re-analysis of the deposited data

Results flagged for a closer look

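Rps25 in double transgenic tumors had 1 array far from the others: replicate 2 lay at 8.94 and the other 3 at 8.10 to 8.21 on the log2 scale, a gap of 0.862 of the group's range. This was 1 of 35 groups of values examined, and chance flags about 1 in 20. Rps25 was called higher than WT in the other 3 tumor groups and did not pass in this one (log2 difference 0.49 ± 0.17 SE, adjusted p = 0.0546).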

How the results depend on the processing

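Of 696 counts and medians recomputed under the alternatives, 631 lay within 1.5 times the count, or within 1 SD between arrays of the median, given above. This SD was 0.148 on the log2 scale, wider than each median difference between tumor groups. A median between tumor groups could thus change sign and still be counted among the 631. Of 89 differences of named genes, 30 passed under every alternative run, and another 27 failed only with the shift to the same ribosomal protein median or an adjusted p under 0.01. That shift sets the members' own median to a constant. With it, 9, 10, 11 and 10 genes were called higher and 6, 12, 9 and 2 lower against WT in *Lck-Dlx5*, line 72, line 420 and double transgenic tumors (medians of 0.01, -0.03, -0.04 and 0.09); between *Lck-Dlx5* and line 72, 2 were lower (median 0.08), between double transgenic and *Lck-Dlx5* 0 lower, and between double transgenic and *Lck-MyrAkt2* 2 higher and 0 lower (median 0.10). Differences that changed sign with it were Rps14 (-0.03 in *Lck-Dlx5*, -0.21 in line 72 and -0.23 in line 420), Rplp1 (-0.25 in line 72 and -0.11 in line 420), Rps4x (-0.03) and Rpl8 (-0.10) in line 72 and Rpl7l1 (-0.26) in line 420. With features annotated to several genes admitted, Rpl5 (-0.01) and Rplp2 (-0.21) changed sign in double transgenic tumors; the cause was not tested.

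An adjusted p under 0.01 gave 25 higher in *Lck-Dlx5* and 29 in double transgenic tumors, and 0 lower in the comparisons of *Lck-Dlx5* with line 72, double transgenic with *Lck-Dlx5* and double transgenic with *Lck-MyrAkt2*. Arrays with a number as sample code gave 24 higher in double transgenic tumors against WT, 8 lower in *Lck-Dlx5* against line 72, 1 higher in line 420 against line 72, and 3 and 10 lower in double transgenic against *Lck-Dlx5* and *Lck-MyrAkt2*; the code type as a term gave 2 for the last of these. For *Lck-Dlx5* against line 72, 3 were lower with the filter at the 75th percentile, and array weights gave 1 higher and 3 lower. For double transgenic against *Lck-Dlx5*, 0 were lower with quantile normalization, the stricter filter or only the arrays compared, 2 with array weights, and 1 was higher with arrays shifted to the same median or with eBayes trend and robust. For double transgenic against *Lck-MyrAkt2*, 0 were lower with the shift to the same median or only the arrays compared and 5 with array weights. The cause of these was not tested. Without single arrays the counts ran from 29 to 49 higher in double transgenic tumors against WT, 0 to 1 higher and 1 to 8 lower in *Lck-Dlx5* against line 72, 0 to 2 lower in double transgenic against *Lck-Dlx5* and 0 to 14 lower against *Lck-MyrAkt2*. No paired analysis was run because the labels give no pairing of arrays between groups. The number of arrays limits all of these values.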
